A study of Canis lupus familiaris with 36 samples.

Results

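The family of miR-148 and miR-152 was examined in small RNA libraries of dog heart tissue. Its members were chosen by name among the mature miRNAs of the count table, as cfa-miR-148a, cfa-miR-148b and cfa-miR-152 (cfa stands for dog). These are 3 of the 453 mature miRNAs listed, each with a single precursor, and all 3 passed the filter on low counts that left 225 mature miRNAs to test. The libraries came from formalin-fixed, paraffin-embedded (FFPE) sections of whole tissue. They comprised 6 cardiac hemangiosarcomas (HSA), a malignant tumor of endothelial cells, and 6 hearts obtained at necropsy of dogs whose death had a non-neoplastic cause, with dogs as replicates. The HSA cases were dogs that had left hospital alive and later died, and prior chemotherapy did not exclude a dog. Per the study's methods and stated limits, the dogs with hemangiosarcoma were older than the controls, so that age and disease cannot be told apart here. The age and breed of each dog were not used here, and the 24 splenic samples of the series were not analysed here. For every cardiac library, the title and the treatment label named opposite conditions, and groups followed the title, so that every direction below would turn under the treatment label. The replicate numbers below are those of the titles.

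MiRNAs are short RNAs that guide a silencing complex to messenger RNAs, largely by pairing through the seed, bases 2 to 8 of the mature strand. The members of this family share their seed and are therefore predicted to reach overlapping targets. They are best known for repressing DNMT1, the enzyme that copies DNA methylation to new strands, and are often silenced by methylation themselves in carcinomas. MiR-148a is also abundant in liver, pancreas and antibody-secreting B cells. Each member comes from a locus of its own. In the RefSeq gene table of the assembly UU_Cfam_GSD_1.0, the miR-148b gene lies within COPZ1 and the miR-152 gene within COPZ2, which encode subunits of the coatomer coat of transport vesicles, whereas no gene of that table contains the miR-148a gene.

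After duplicate entries were merged, the control libraries held 6999830 to 11668822 counts and the HSA libraries 2018959 to 8999025. The lowest count of any member was 479, for miR-152 in HSA replicate 4, with an exact Poisson 95% interval of 437.1 to 523.9, and the highest was 24562, for miR-148a in HSA replicate 2. Such intervals cover counting error only, since PCR copies of a molecule are counted as separate reads. Levels are given as CPM, a count relative to its library's total, after scaling by edgeR's TMM factors. Several HSA libraries had low levels of the miRNAs that mark heart muscle. The muscle miRNAs (miR-1, miR-133a, miR-133b, miR-208a, miR-208b and miR-499) summed to between 126957 and 187400 CPM in control. They reached 130206 CPM in HSA replicate 1 and 161445 CPM in HSA replicate 6, but 61470 CPM in replicate 5, 26162 CPM in replicate 4, 13465 CPM in replicate 2 and 683 CPM in replicate 3. HSA replicates 4, 5 and 6 had no read on miR-208a, and replicate 3 had none on either miR-208a or miR-208b. The liver miRNAs (miR-122, miR-192 and miR-194) of HSA replicate 3 summed to 216640 CPM. They reached at most 4016 CPM in the other HSA libraries and 261 CPM in control. MiR-126, the endothelial miRNA, was at 944 to 4295 CPM in HSA and 2371 to 4213 CPM in control. HSA replicates 2 to 5 lay below every control library, replicate 1 above them and replicate 6 within their range. Its log2 fold change was -0.45 (adjusted p = 0.328 in edgeR's quasi-likelihood test). Because HSA replicate 3 stood apart, the tested results are also given without it. In such bulk tissue, fewer cells of a type and less RNA per cell cannot be told apart.

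MiR-148a was the most abundant member and rose in cardiac HSA. Its level in control replicates 1 to 6 was 1026, 933, 1168, 751, 671 and 1014 CPM. In HSA replicates 1 to 6 it was 1272, 2721, 5971, 1418, 3043 and 1198 CPM. All 6 HSA libraries thus lay above all 6 control libraries, but HSA replicates 1, 4 and 6 were close above the highest control, and replicates 2, 3 and 5 carried most of the difference. Over all 225 tested miRNAs, 15.1% had every HSA library above every control library. HSA averaged 2604 ± 1828 CPM (SD, n = 6), against 927 ± 186 CPM (SD, n = 6) in control. The log2 fold change, 1.49 with a standard error of 0.38, had an adjusted p of 0.00762 in edgeR's quasi-likelihood test. A miRNA was called when its adjusted p was below 0.01 and its log2 fold change was 1 or more in size, which miR-148a met. It was the only member called higher, 1 of 3, where 18.7% of all tested miRNAs were called higher. Its place in the order of all mature miRNAs by level was a median of 54 in control and 40 in HSA, and 19 in HSA replicate 3.

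The call of miR-148a was near its threshold. Without HSA replicate 3, the log2 fold change of 1.06 (standard error 0.28) had an edgeR adjusted p of 0.0103, so that the call was lost, in a fit that called 13.1% of miRNAs higher. It was also lost when any other library was left out except HSA replicate 6, with adjusted p up to 0.0211. Without HSA replicate 6 it was kept, at 1.64 (adjusted p = 0.00336). With no filter beyond 1 read, which added rarely read miRNAs to the test and called 13.1% of them all higher, miR-148a stood at 1.46 (adjusted p = 0.0107).

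**Figure D1:**
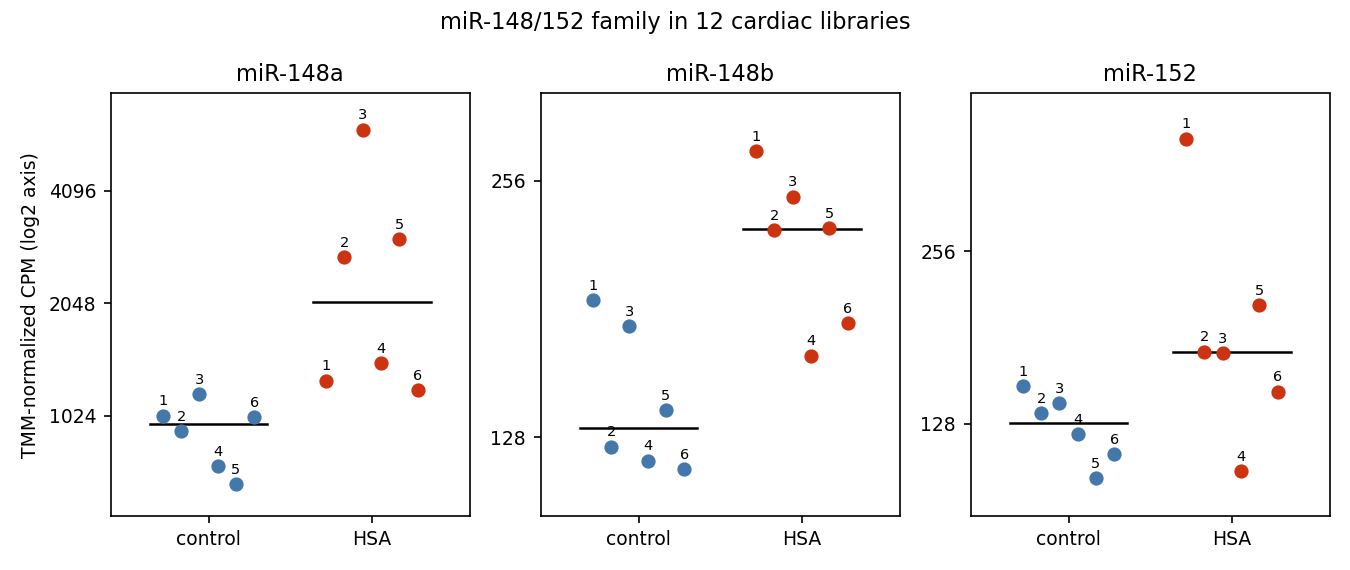
TMM-normalized CPM (log2 axis) of miR-148a, miR-148b and miR-152 in each library, with points numbered by replicate and lines at the group medians. All HSA points of miR-148a lie above the control points, with replicate 3 highest at 5971 CPM, while miR-148b and miR-152 overlap between the groups.

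MiR-148b was less abundant and differed less. Control replicates 1 to 6 had 185, 125, 173, 120, 138 and 118 CPM. HSA replicates 1 to 6 had 277, 224, 245, 160, 225 and 174 CPM. HSA replicates 1, 2, 3 and 5 exceeded every control library, and replicates 4 and 6 fell within the control range. HSA averaged 217.5 ± 44.0 CPM (SD, n = 6), against 143 ± 29.0 CPM (SD, n = 6) in control, and the coefficients of variation were 20.2% and 20.3%. At 0.60 with a standard error of 0.19, its log2 fold change fell short of both thresholds (adjusted p = 0.0219 in edgeR's test). Without HSA replicate 3 it was 0.57 (adjusted p = 0.0359). Without HSA replicate 1 it was 0.27 (adjusted p = 0.316), but that fit also moved the median of all tested miRNAs from 0.34 to 0.08, and relative to the median miR-148b went from 0.26 to 0.20.

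MiR-152 had 149, 134, 139, 123, 103 and 113 CPM in control replicates 1 to 6. It had 402, 171, 170, 106, 206 and 146 CPM in HSA replicates 1 to 6. HSA replicate 1 lay far above all other libraries, and replicates 4 and 6 lay among the controls. HSA averaged 200 ± 104 CPM (SD, n = 6), against 127 ± 17.0 CPM (SD, n = 6) in control. At 0.66 with a standard error of 0.29, the log2 fold change was not called (adjusted p = 0.0771 in edgeR's test). Without HSA replicate 1 it was 0.08 (standard error 0.21, adjusted p = 0.797), and relative to the median of all tested miRNAs it went from 0.32 to 0.0022. Without HSA replicate 3 it was 0.70 (adjusted p = 0.0735). HSA replicate 1, the highest for both miR-148b and miR-152, was also the smallest library.

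The size of these differences depended on the scaling, while their sign did not under any scaling tried. TMM left a median log2 fold change of 0.34 over all tested miRNAs, above which miR-148a lay by 1.15, miR-152 by 0.32 and miR-148b by 0.26. With counts scaled by library size only, that median moved to 0.97 and the log2 fold changes were 2.11 for miR-148a, 1.21 for miR-148b and 1.23 for miR-152. All 3 were then called higher, as were 30.2% of all tested miRNAs, but above the median they lay by 1.13, 0.24 and 0.26, close to the values under TMM. With limma on the deposited CPM all 3 were likewise called higher, among 23.6% of miRNAs. In DESeq2, miR-148a was called at 1.37 (adjusted p = 0.000933), among 17.3% called higher. The median there, 0.81, was over a wider set that held rarely read miRNAs. Relative to it, miR-148b and miR-152 stood at -0.28 and -0.22. With TMM and no filter beyond 1 read, the median was likewise 0.83, and they stood at -0.25 and -0.20. With median-of-ratios factors in place of TMM, the median was 0.30, and they lay above it by 0.24 and 0.30. The negative positions thus came with the wider sets of miRNAs. Over all miRNAs, 42 were called higher and 16 lower with TMM, 68 and 5 with library size only, and 53 and 5 with limma.

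**Figure D2:**
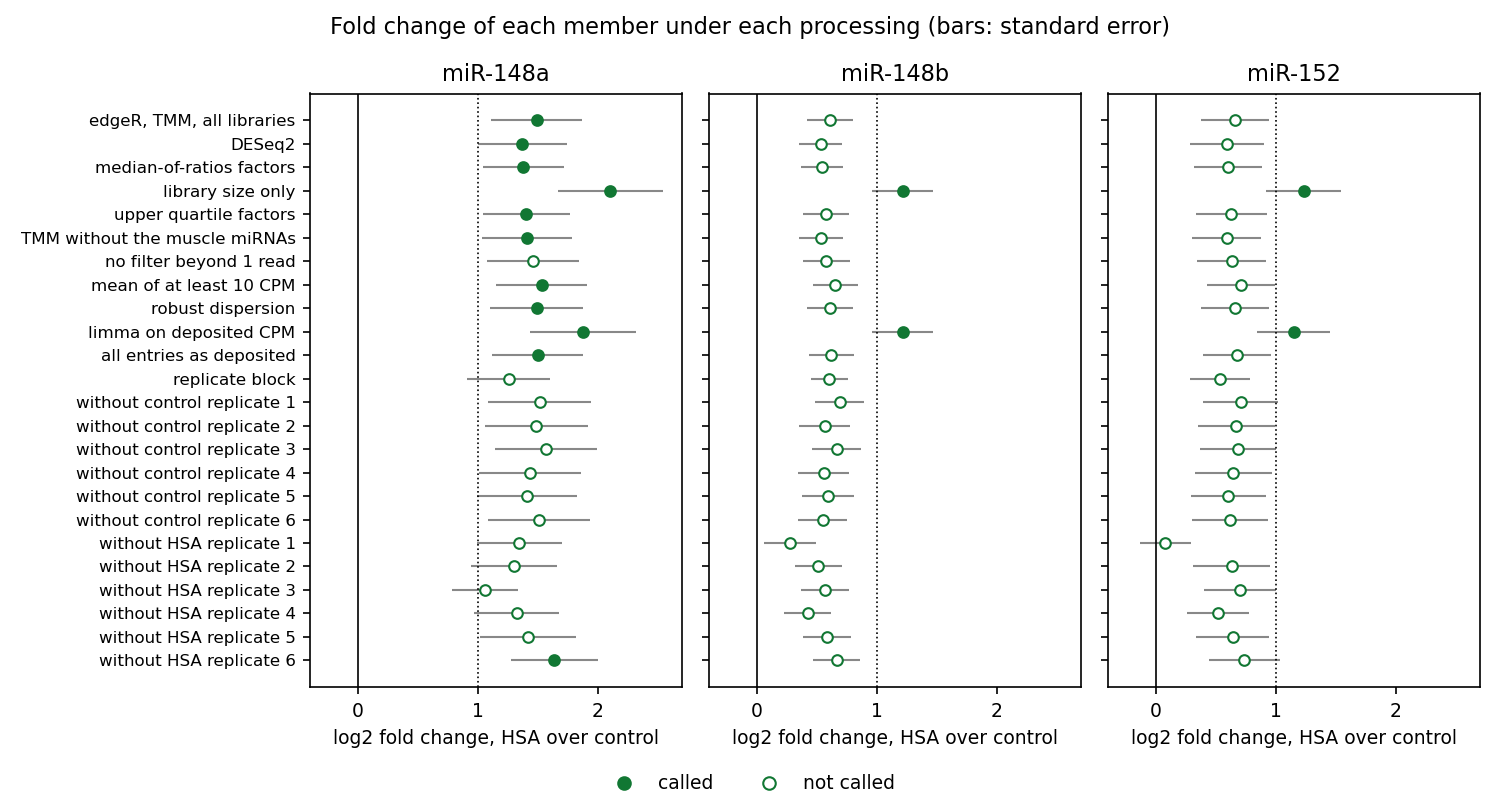
Log2 fold change (HSA over control) of each member under each processing alternative and with each library left out, with bars of 1 standard error, a dotted line at the threshold of 1 and filled points where the member was called. All points lie to the right of 0, and the miR-152 point without HSA replicate 1 is at 0.08.

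Within the family, miR-148a was always the leading member. It held 73.6% to 81.5% of the family's counts in control (mean 77.2% ± 2.87, SD, n = 6). In HSA replicates 1 to 6 its share was 65.2%, 87.3%, 93.5%, 84.2%, 87.6% and 78.9%. Wilson 95% intervals were narrow, the widest being 63.8% to 66.6% in HSA replicate 1. HSA replicates 2 to 5 thus exceeded every control and replicate 1 fell below them, which left the groups overlapping. MiR-148b and miR-152 held similar shares in control, 12.1% ± 2.06 and 10.7% ± 1.24 (SD, n = 6), and did not differ beyond this spread there. In HSA they held 8.78% ± 3.73 and 8.43% ± 6.37 (SD, n = 6). For miR-148b, 3 HSA libraries fell below every control, and for miR-152, 4 did. Without HSA replicate 3 the HSA shares were 9.76% ± 3.17 and 9.58% ± 6.38 (SD, n = 5). In HSA replicate 1, the share of miR-152 was 20.6%, above that of miR-148b at 14.2%. The family as a whole summed to 1197 ± 215 CPM in control (SD, n = 6) and to 3021 ± 1829 CPM in HSA (SD, n = 6). Without HSA replicate 3, the HSA libraries averaged 2349 ± 887 CPM for the sum and 80.7% ± 9.32 for the share of miR-148a (SD, n = 5).

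**Figure D3:**
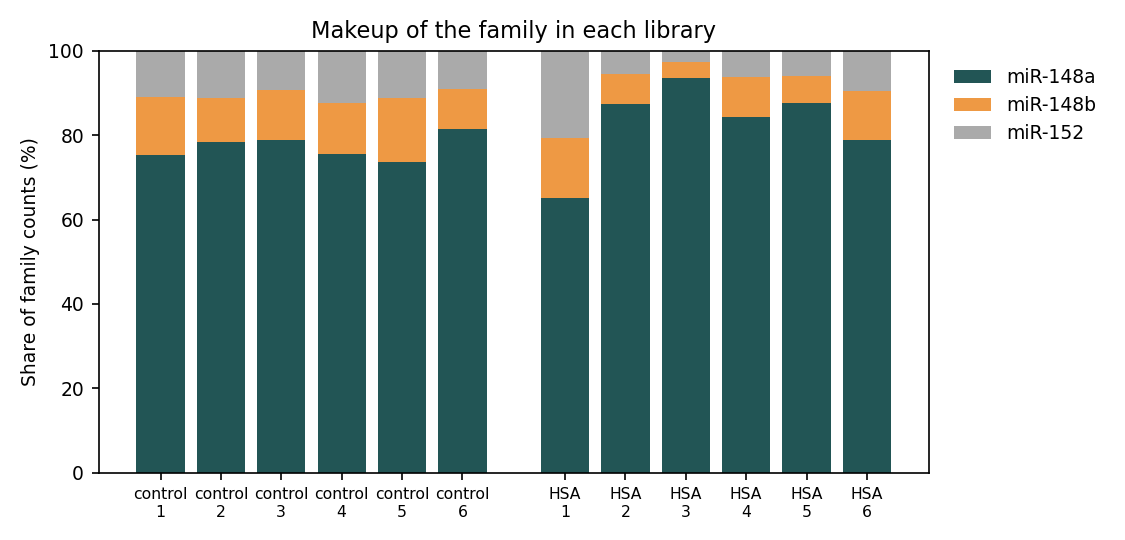
Share of the family's raw counts (%, stacked to 100) on each member in each of the 12 libraries. MiR-148a holds 73.6% to 81.5% in control, 93.5% in HSA replicate 3 and 65.2% in HSA replicate 1.

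Whether members differed in their change was tested on ratios within a library, which need no scaling factor. The ratio of miR-148a to miR-148b ran from 4.87 to 8.62 in control. It was 4.59, 12.1, 24.3, 8.88, 13.5 and 6.88 in HSA replicates 1 to 6. The mean log2 ratio was higher by 0.65 in HSA, which an exact permutation test did not separate from the spread between libraries (two-sided p = 0.102, adjusted p = 0.273 over the 3 ratios, smallest possible p 0.00216). The ratio of miR-148a to miR-152 ran from 6.11 to 8.94 in control. In HSA it was 3.16, 15.9, 35.1, 13.4, 14.8 and 8.23, a mean log2 difference of 0.72 (exact permutation p = 0.182, adjusted p = 0.273). The log2 ratio of miR-148b to miR-152 was 0.23 ± 0.41 (SD, n = 6) in HSA and 0.16 ± 0.21 (SD, n = 6) in control, a difference of 0.07 (exact permutation p = 0.755, adjusted p = 0.755). For both ratios, HSA replicates 2 to 5 exceeded every control library, replicate 6 lay within the control range and replicate 1 below it. Without HSA replicate 1, the differences for miR-148a were 0.89 against miR-148b and 1.10 against miR-152, each with an adjusted exact permutation p of 0.026. Of the 12 fits with 1 library left out, only this 1 brought these differences below the threshold of 0.05. Without HSA replicate 3, they were 0.40 and 0.41, each with an adjusted exact permutation p of 0.545, and the difference between miR-148b and miR-152 was 0.0046 (adjusted exact permutation p = 0.996).

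The level of miR-148a in the HSA libraries was set beside the other tissue miRNAs they carried. HSA replicates 1 and 6, whose muscle sums were within the control range, had the lowest miR-148a of the group, 1272 and 1198 CPM. HSA replicate 3, with the lowest muscle sum and the highest liver sum, had the highest. In replicates 1 and 6, however, miR-208b was at 67.7 and 68.3 CPM, below the control range of 85.4 to 199.7 CPM. MiR-499 in replicate 1, at 17594.5 CPM, was also below the control minimum of 18772.6 CPM. HSA replicate 2 had 2721 CPM of miR-148a with liver miRNAs at 501 CPM, and the liver sum of all 6 HSA libraries lay above all controls. Taken singly, miR-122 and miR-192 also had every HSA library above every control, as did 15.1% of all tested miRNAs. MiR-194 overlapped, with HSA replicate 1 at 80.7 CPM and control at 39.87 to 89.95 CPM. HSA replicate 4 departed from the order of the muscle and liver sums, with miR-148a at only 1418 CPM. Its muscle sum of 26162 CPM was below that of replicate 5 (61470 CPM), which had 3043 CPM of miR-148a. Its liver sum of 2024 CPM was above that of replicate 2, but the members of that sum did not share this order. MiR-122 alone was at 173.5 CPM in replicate 4, below replicate 2 at 241.4 CPM. In replicate 5 it was lowest of the HSA libraries, at 66.7 CPM. MiR-375, a miRNA of endocrine and epithelial cells, stood at 4486, 5292 and 10488 CPM in HSA replicates 2, 3 and 5. It was at 19.7, 34.7 and 57.6 CPM in HSA replicates 1, 4 and 6 and at 2.05 to 8.20 CPM in control. The 3 libraries highest in miR-375 were thus also the 3 highest in miR-148a, although not in the same order. Of the 8 epithelial miRNAs listed (miR-141, miR-200a, miR-200b, miR-200c, miR-203, miR-205, miR-375 and miR-429), 4 were tested and 3 called higher, with and without HSA replicate 3, where 18.7% of all tested miRNAs were called higher with it and 13.1% without it, and their sum ran from 80.7 to 13773 CPM in HSA against 9.88 to 23.8 CPM in control. That sum was mostly miR-375 in HSA replicates 2, 3 and 5, where it came to 4825, 5482 and 13773 CPM. MiR-200c was at 7.975, 10.89 and 1568.6 CPM in these 3 libraries. The defining miR-200a was without a read in HSA replicates 1 and 2, and miR-200b in replicates 2 and 3. Leukocyte miRNAs (miR-142, miR-150, miR-155 and miR-223), all 4 called higher (2 without HSA replicate 3), beside those same shares of 18.7% and 13.1%, summed to 578 to 3555 CPM in HSA and 289 to 424 CPM in control. Of these, miR-150, a miRNA of lymphocytes, was highest in HSA replicate 2 at 1391 CPM and lowest in replicate 1 at 86.6 CPM. Its control range was 98.8 to 146 CPM. HSA replicates 2 to 5 lay above that range, replicate 6 within it at 113 CPM and replicate 1 below it. Of the 3 erythroid miRNAs (miR-144, miR-451 and miR-486), miR-144 was called higher (none without HSA replicate 3), again beside 18.7% and 13.1% of all tested miRNAs. MiR-486 went the other way, at 2210.5 to 13305 CPM in HSA and 14093 to 24842 CPM in control. Its log2 fold change of -1.33 was not called (adjusted p = 0.0205 in edgeR's test), nor was that of -1.41 without HSA replicate 3 (adjusted p = 0.0266). The erythroid sum was 5709 to 47480 CPM in HSA and 20867 to 29994 CPM in control. The part of any of these tissues in the level of miR-148a was not tested.

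**Figure D4:**
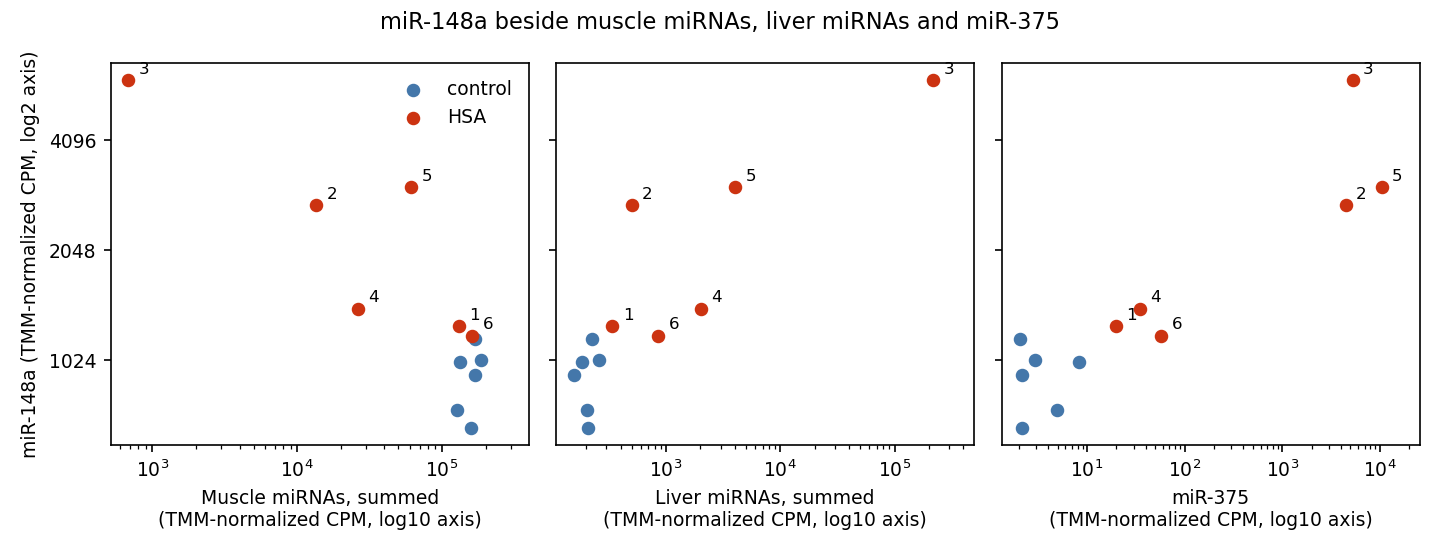
MiR-148a (log2 axis) against the sum of the muscle miRNAs, the sum of the liver miRNAs and miR-375 (log10 axes), all in TMM-normalized CPM, with HSA libraries numbered by replicate. HSA replicates 1 and 6 lie within the control range for muscle and just above the control libraries for miR-148a, and replicates 2, 3 and 5 combine high miR-148a with 4486 to 10488 CPM of miR-375.

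The miRNAs most like each member in pattern were sought among the tested miRNAs by Pearson's r of log2 CPM over the 12 libraries, given as a description because all points share the scaling and the difference between the groups. For miR-148a they were miR-375 (r = 0.915, and 0.933 over the 11 libraries without HSA replicate 3), miR-130b (0.848 and 0.726) and miR-194 (0.838 and 0.684). After subtraction of the group means, r of miR-148a was 0.820 with miR-375, 0.723 with miR-130b and 0.689 with miR-194. MiR-148b was most like miR-212 (0.878, and 0.864 without HSA replicate 3), miR-497 (0.869 and 0.850) and miR-132 (0.845 and 0.817). With group means subtracted, these were 0.692, 0.794 and 0.590. MiR-212 and miR-132 come from a single cluster that responds to the transcription factor CREB. Both were called higher, by log2 fold changes of 2.54 and 2.53, beside 18.7% of all tested miRNAs. MiR-212 was rare, with a mean of 2.35 CPM in control. For miR-152 the list was miR-23b (0.908 with and without HSA replicate 3), its own relative miR-148b (0.808 and 0.836) and miR-497 (0.775 and 0.792). Group means subtracted, these were 0.903, 0.735 and 0.676. MiR-497, a member of the growth-restraining family of miR-15 and miR-16, was thus on the lists of both miR-148b and miR-152, and had a log2 fold change of 0.60 (adjusted p = 0.0728 in edgeR's test). By Pearson's r, miR-148b was the 31st most like miR-148a (0.715) and miR-152 the 93rd (0.373), with Spearman's rho of 0.783 and 0.678. After subtraction of the group means, their r with miR-148a was 0.391 and -0.001. Differences between these coefficients were not tested.

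Among the 6 HSA libraries alone, log2 levels of miR-148b and miR-152 had a Pearson r of 0.866 (exact permutation p = 0.0139) and a Spearman rho of 0.829 (exact permutation p = 0.0583). The adjusted values were 0.167 and 0.35 over the 12 coefficients computed for 3 pairs in both groups. Without the 2 libraries farthest from the median of miR-148b, r was 0.843, but the 4 libraries left were too few to judge whether the correlation holds. MiR-148a and miR-152 had an r of -0.072 in HSA (exact permutation p = 0.91) and a rho of 0.143 (exact permutation p = 0.803), with adjusted values of 0.91 and 0.876. None of the 12 coefficients passed the adjustment, and without HSA replicate 3 the 5 HSA libraries left were too few for a correlation.

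MiRNAs related to the family by seed or by target were read from the same fit. The family of miR-130, miR-301 and miR-454 has a seed shifted by 1 base from that of miR-148a, and 4 of its 5 members listed were tested (miR-130a, miR-130b, miR-301a and miR-454). None of them was called, where 25.8% of all tested miRNAs were called in either direction (18.8% without HSA replicate 3), with a median log2 fold change of -0.28 against 0.34 over all tested miRNAs. MiR-130a, the most abundant, averaged 46.8 ± 14.1 CPM in HSA (SD, n = 6) against 65.5 ± 14.0 CPM in control (SD, n = 6), for a log2 fold change of -0.49 (adjusted p = 0.13 in edgeR's test). MiR-130b, at the low level of 1.79 to 12.1 CPM in HSA and 0.804 to 3.06 CPM in control, had 1.55 (standard error 0.50, adjusted p = 0.0243), and was at its highest in HSA replicate 3, without which it had 1.11 (standard error 0.44, adjusted p = 0.0564). MiR-301b had no read in control.

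Of 6 other miRNAs known to target DNA methyltransferases (miR-29a, miR-29b, miR-29c, miR-143, miR-185 and miR-342), none was called either, beside 25.8% of all tested miRNAs. Their median log2 fold change was 0.20, against 0.34 over all tested miRNAs. MiR-143, a smooth muscle miRNA and the most abundant of them, was at -0.04 (standard error 0.30), and at 0.01 without HSA replicate 3. MiR-29a, which represses DNMT3A and DNMT3B as well as collagens, averaged 5430 ± 695 CPM in HSA (SD, n = 6) against 3885 ± 941 CPM in control (SD, n = 6), for a log2 fold change of 0.48 (adjusted p = 0.0445 in edgeR's test). MiR-185, which targets DNMT1 like miR-148a and its relatives, was at 0.07 (adjusted p = 0.727). In both lists the count of called miRNAs was also 0 without HSA replicate 3, beside 18.8% of all miRNAs tested in that fit. By an adjusted p under 0.05 alone, 45.3% of all tested miRNAs passed, among them miR-148a, miR-148b, miR-130b and miR-29a. Without HSA replicate 3, miR-130b and miR-29a no longer passed (adjusted p = 0.0564 and 0.0542 in edgeR's test).

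**Figure D5:**
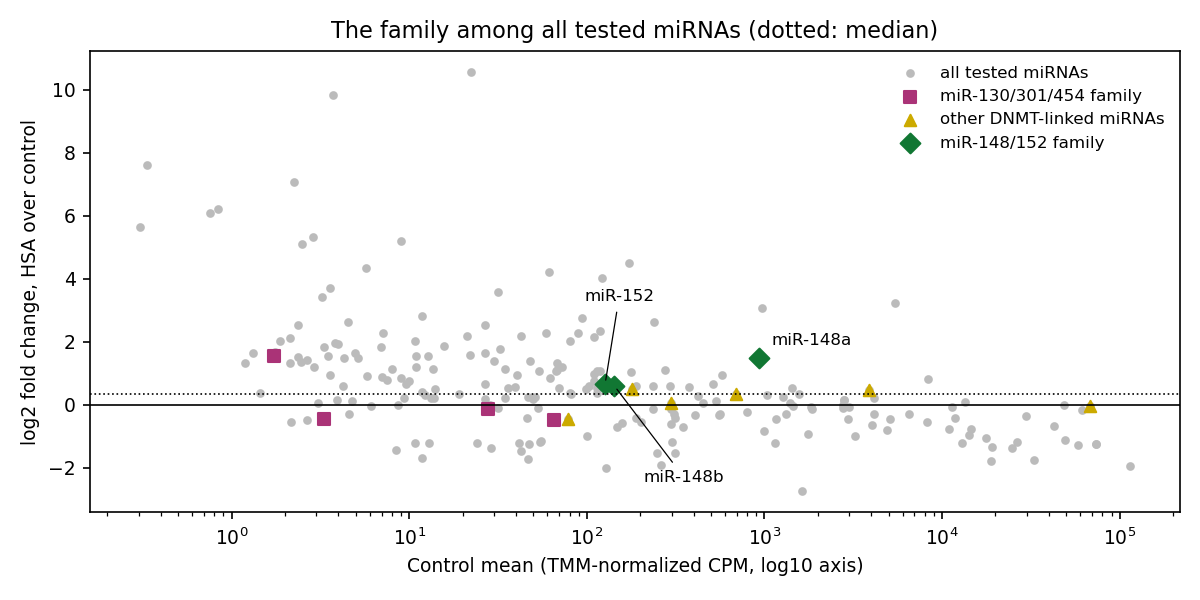
Log2 fold change (HSA over control) against the control mean in TMM-normalized CPM (log10 axis) for the 225 tested miRNAs, with the family of miR-148 and miR-152, that of miR-130, miR-301 and miR-454, and other miRNAs linked to DNA methyltransferases marked, and a dotted line at the median of 0.34. MiR-148a lies above the other marked miRNAs of similar or higher level, while miR-148b and miR-152 lie 0.26 and 0.32 above the median.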

How the data were processed

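Small RNA of FFPE heart tissue was sequenced in 6 HSA and 6 control libraries. Per the study's methods, the authors trimmed reads with Cutadapt v4.1, dropped those under 17 nt, aligned the rest to CanFam3.1 with Bowtie v1.3.1 and counted them on miRBase v22.1 miRNAs with HTSeq v2.0.2. The methods name a NEXTflex library kit for heart, the labels another one. The authors deposited raw counts and the same counts as CPM over all entries, which recomputation matched to within 0.00499 CPM. Of 517 entries, 43 with the same name and counts as another were merged. A mature miRNA with several entries was represented by that with the most counts. MiR-133c holds the reads of miR-133a and was left out of the muscle sum.

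Counts were tested with edgeR 4.0.16 (R 4.3.3; TMM, default low-count filter by condition, quasi-likelihood F test, Benjamini-Hochberg adjustment over all tested entries). The study used DESeq2, run here as an alternative (version 1.42.0), as was limma 3.58.1. Standard errors were derived as log2 fold change divided by the root of F. Ratios used counts plus 0.5 and exact permutation in Python 3.11.15 with scipy 1.17.1. Likeness used log2 CPM with a prior count of 0.5, naming the 3 highest per member. Scripts were tested on simulated data. The members and lists were chosen with earlier results of these data known. Other miRNAs with the seed of the family were not searched for.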

Additional observations from a re-analysis of the deposited data

Results flagged for a closer look

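In the HSA group, miR-152 was far higher in replicate 1 than in the other libraries, at 402.3 TMM-normalized CPM against a next highest value of 206 CPM. The gap to the next library was 0.662 of the group's range, above Dixon's 95% critical value for 6 values. The raw count behind it was 897, with an exact Poisson 95% interval of 839.3 to 957.7. This was the only one of 14 checks (3 members, 3 ratios and the family sum, each in both groups) to exceed the critical value, and chance exceeds it in about 1 of 20. For miR-148a in HSA replicate 3 the same quotient was 0.613.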

How the results depend on the processing

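All 3 members kept a log2 fold change above 0 under every alternative. MiR-148a was no longer called without a filter beyond 1 read (1.46, adjusted p = 0.0107) or with the replicate number as a block (1.26, edgeR adjusted p = 0.0333), and ran from 1.06 to 1.64 with each library left out, when 11 of 12 fits lost the call. MiR-148b became called by library size only (1.21) and by limma on the deposited CPM (1.21), and ran from 0.27 to 0.69 with a library left out. MiR-152 became called in the same fits (1.23 and 1.15), and ran from 0.08 to 0.74. The number of called miRNAs, 58, was 24 to 65 with a library left out (24 to 38 without control replicate 1, 2, 4, 5 or 6 or HSA replicate 4) and 6 under the replicate block. The numbers do not pair the dogs: same-numbered libraries had correlations of -0.28 to 0.04 in their deviations from the group means, and none correlated best with its own number. With a library left out, the log2 difference in the miR-148a to miR-148b ratio ran from 0.40 to 0.89, that of miR-148a to miR-152 from 0.41 to 1.10, and that of miR-148b to miR-152 from -0.0079, without HSA replicate 4, to 0.22. Medians in place of means and a pseudocount of 10 left the ratio tests on the same side of their threshold. The cause of these changes was not tested. Counting error was small beside the spread between libraries, with Poisson intervals reaching at most 9.37% above a member's count.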
